A study of Bos taurus with 15 samples.

Results

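The genes described here encode lysosomal enzymes, lysosomal membrane proteins, subunits of the vacuolar proton pump (V-ATPase) and the transcription factor TFEB. They were chosen by gene symbol from 43 names with a known role in the lysosome, and 41 of them were found, out of 13896 genes. CTSO and IDUA were not found. The list was selected with earlier results from these 6 comparisons known, so the counts and p-values below describe these genes and are not independent evidence on the lysosome as a whole.

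RNA was sequenced from subcutaneous adipose tissue of the dewlap of primiparous Prim Holstein dairy cows. Biopsies at -4 weeks peripartum (-4 wkpp, 1 month before calving) were taken before the diet experiment. The labels give the later groups by diet since 1 month before calving, low energy (LE) or high energy (HE), and biopsies followed at 1 and 16 wkpp. In the study's methods the groups are named for their negative energy balance (NEB), severe in SNEB and moderate in MNEB, split by the energy balance at 1 wkpp, and the sequenced cows were the most extreme of each group. SNEB here stands for the LE libraries and MNEB for the HE libraries. Each of the 5 groups (-4 wkpp, MNEB 1 wkpp, SNEB 1 wkpp, MNEB 16 wkpp and SNEB 16 wkpp) had 3 libraries from 3 cows. The labels do not tie libraries to cows across time points, so the same cow may appear at more than 1 time point. The titles also carry a tag, m1 or m2, whose meaning is not given in the sources used here: -4 wkpp, MNEB 1 wkpp and SNEB 16 wkpp are m1, and SNEB 1 wkpp and MNEB 16 wkpp are m2. Tag and group cannot be told apart in 5 of the 6 comparisons, the exception being -4 wkpp with MNEB 1 wkpp, which are both m1.

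The lysosome is the acidic compartment in which proteins, glycans, lipids and other material delivered by endocytosis, phagocytosis or autophagy are degraded. The V-ATPase pumps protons into it, acid hydrolases do the degradation, and membrane proteins protect its membrane and export the products. In adipose tissue, lysosomes are abundant in macrophages, and lysosomal acid lipase there hydrolyses lipid taken up from adipocytes. TFEB is a transcription factor that activates many lysosomal genes when nutrients are short.

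The 6 deposited tables give means over 6 libraries. From these means, whole numbers of reads were solved for each library, for 13890 genes on exons as well as on the whole gene, including all 41 lysosomal genes. The libraries of a group are known by group only, and their numbers 1 to 3 follow no order in the labels. Normalized counts below are exonic reads divided by a size factor of the library (median of ratios over all 15 libraries). A level in normalized counts is comparable between libraries for a gene, but not between genes, as it is not divided by gene length.

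The MNEB libraries had fewer reads on genes than the others. In the study's own summary of the sequencing, total reads were in a similar range in all groups. The share aligned uniquely was lower in every MNEB library than in the others. Exonic reads on genes ranged from 2.02 to 7.48 M in the 6 MNEB libraries, from 7.76 to 13.4 M at -4 wkpp and from 10.9 to 14.6 M in the 6 SNEB libraries. Reads on 86 synthetic spike-in RNAs came to 2.9 to 23.7% of the exonic reads on genes in MNEB and to 0.181 to 1.55% in the other 9 libraries. These values differ without overlap in each comparison of MNEB with -4 wkpp or SNEB, while MNEB at 1 and 16 wkpp overlap, and their part in the results below was not tested. A lower level in bulk tissue can mean fewer cells of a type or less RNA per cell, which cannot be told apart here.

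Summed over the 41 genes, the level was lowest in the MNEB groups. The summed normalized count was 57157, 65971 and 51839 in the 3 libraries at -4 wkpp. In MNEB 1 wkpp it was 41295, 19523 and 24146, and in SNEB 1 wkpp it was 55916, 78787 and 47565. All 3 MNEB libraries at 1 wkpp were below all SNEB libraries at that time. In MNEB 16 wkpp it was 28205, 28651 and 27357, against 68291, 70741 and 76241 in SNEB 16 wkpp, again without overlap. The 41 genes took between 0.279 and 0.567% of the exonic reads in the MNEB libraries and between 0.666 and 1.04% in the other 9.

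**Figure D1:**
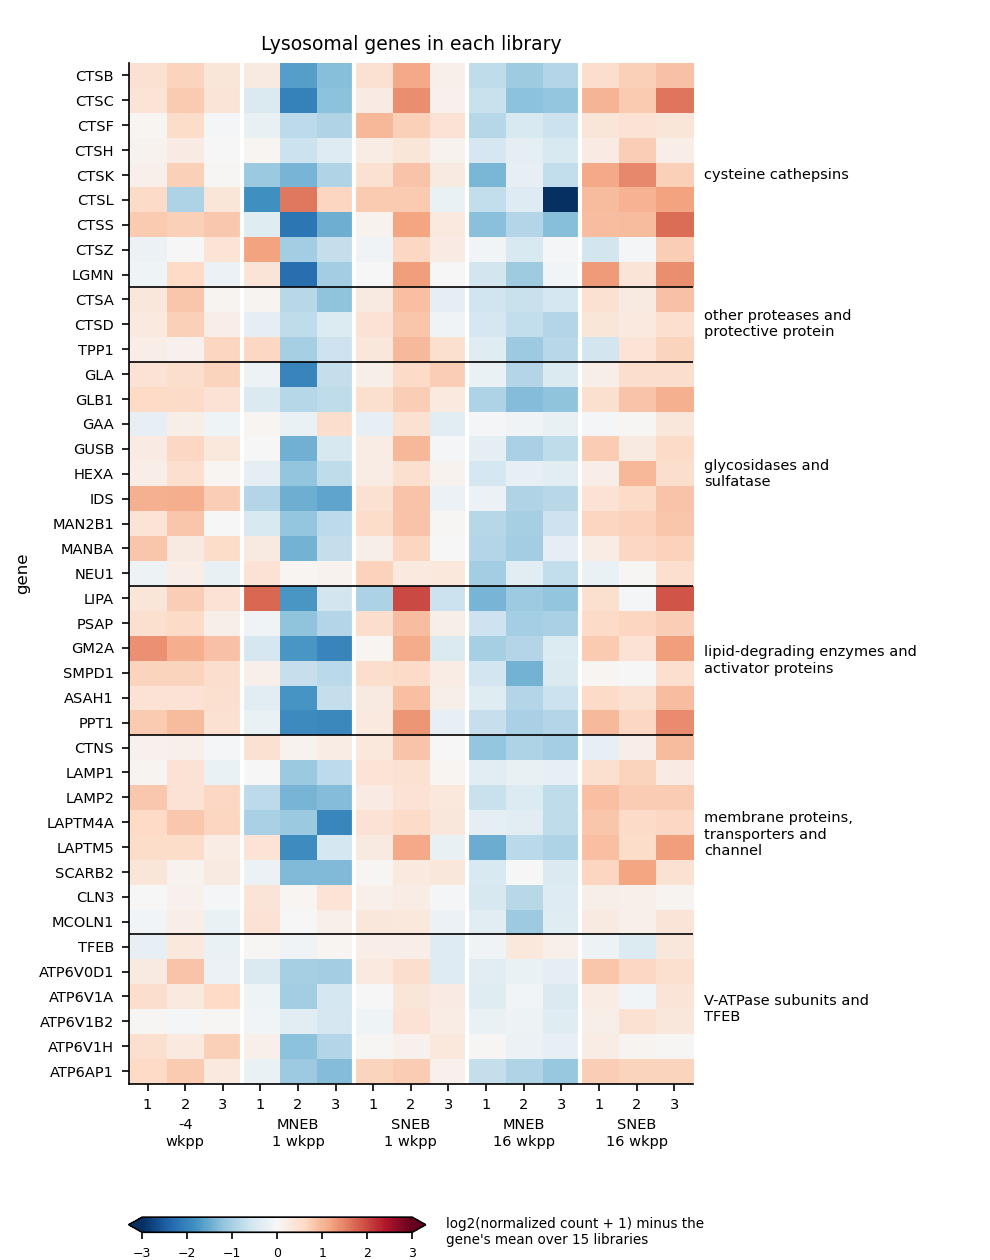
Rows are the 41 lysosomal genes by role and columns are the 15 libraries by group; colour gives log2(normalized count + 1) minus the mean of that gene over the 15 libraries. The MNEB libraries are mostly below the mean (blue), with library 1 of MNEB 1 wkpp closest to it, and library 2 of SNEB 1 wkpp and library 3 of SNEB 16 wkpp stand above it for many genes.

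In all groups but MNEB 16 wkpp, 1 library was highest for most of the 41 genes, above all at 1 wkpp. Library 1 of MNEB 1 wkpp, which had the most exonic reads of that group, had the highest level of the 3 for 36 of the 41 genes. Library 2 of SNEB 1 wkpp was highest for 33 of 41. At -4 wkpp library 2 was highest for 26 of 41, and in SNEB 16 wkpp library 3 for 27 of 41. The matching shares over all genes were not computed. The median SD of log2 levels over the 41 genes was 0.56 in MNEB 1 wkpp (0.38 over all genes) and 0.34 in SNEB 1 wkpp (0.27). It was 0.21 at -4 wkpp (0.25 over all genes), 0.22 in MNEB 16 wkpp (0.31) and 0.25 in SNEB 16 wkpp (0.22). LIPA, the lysosomal acid lipase that hydrolyses cholesteryl esters and triglycerides, was one of the most variable: it had 391, 2975 and 484 normalized counts in SNEB 1 wkpp and 2487, 224 and 515 in MNEB 1 wkpp. In both groups a single library held several times the level of the other libraries.

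The differences between groups were tested with limma (voom) for each comparison of 3 libraries with 3, over all genes with a mean of at least 10 exonic reads. The 41 lysosomal genes passed this filter in each comparison except MNEB at 1 and 16 wkpp, where CTSL did not and 40 were tested. A gene was called when its Benjamini-Hochberg adjusted p-value was below 0.01 on exons and on the whole gene with the same sign. Fold changes are log2 values on exons with their standard error (SE), first group over second.

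Of the 6 comparisons, SNEB against MNEB at 16 wkpp had the most of these genes called. Of the 41 genes, 12 were called, all higher in SNEB: the proteases CTSB, CTSK, CTSS and CTSD, the mannosidase MAN2B1, the lipid-related PSAP, ASAH1 and PPT1, the membrane proteins LAMP2, LAPTM4A and LAPTM5, and the V-ATPase accessory subunit ATP6AP1. Their levels were between 2.16-fold and 5.09-fold higher in SNEB. Over all 10369 genes tested, 5.07% were called in either direction and 1.55% were called higher in SNEB. The median log2 fold change was 1.13 over the 41 genes and 0.04 over all genes, and 40 of the 41 were above 0. The libraries did not overlap for 36 of the 41 genes, each time with SNEB higher, and for none with SNEB lower, where 22.1% of all genes were higher and 21.7% lower without overlap. CTSZ, TPP1, TFEB, ATP6V1A and ATP6V1H overlapped. CTSL is counted in the 36, the 40 and the median, though it passed the filter through its SNEB libraries alone.

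Among the 9 cysteine proteases found, 3 were called (CTSB, CTSK and CTSS) and the median log2 fold change at 16 wkpp was 1.63. CTSS, a cathepsin of antigen-presenting cells that cleaves the invariant chain, had 612, 789 and 596 normalized counts in MNEB and 2755, 2835 and 4626 in SNEB. Every SNEB library was more than 3 times the highest MNEB library, and the log2 fold change was 2.35 ± 0.24 (SE, n = 3 and 3 libraries; limma adjusted p = 0.000708 on exons and 0.00216 on the whole gene). CTSK, a collagen-degrading cathepsin best known from osteoclasts, had 1191, 2575 and 1852 in MNEB and 6743, 8305 and 5049 in SNEB. The groups were apart although the MNEB libraries varied about their mean, and the log2 fold change was 1.87 ± 0.32 (SE; limma adjusted p = 0.00418 and 0.00785). CTSB, a broadly expressed endopeptidase and carboxydipeptidase, had 2287, 1851 and 2126 in MNEB and 5593, 6405 and 7208 in SNEB. The libraries within each group were close to each other, and the log2 fold change was 1.63 ± 0.18 (SE; limma adjusted p = 0.000916 and 0.00295). CTSC, which activates serine proteases of immune cells, differed by 2.12 ± 0.26 (SE) and passed on exons (limma adjusted p = 0.00104) but not on the whole gene (limma adjusted p = 0.0107), just outside the threshold. The largest log2 fold change of all 41 genes was that of CTSL at 2.42 ± 0.70 (SE), which was not called (limma adjusted p = 0.0362 on exons) and rested on 8, 4 and 0 exonic reads in MNEB and 53, 48 and 51 in SNEB, so that it passed the filter through its SNEB libraries alone. CTSZ was lowest at 0.21 ± 0.35 (SE).

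Of the other proteases, CTSD, the aspartic protease of the lysosome, was called with a log2 fold change of 1.11 ± 0.18 (SE). The protective protein CTSA, which stabilises beta-galactosidase and neuraminidase, had 1.15 ± 0.19 and the tripeptidyl peptidase TPP1 had 0.83 ± 0.41, and neither was called. Of the 9 glycosidases and sulfatase found, MAN2B1, the lysosomal alpha-mannosidase, was called at 1.56 ± 0.17, and the median was 1.12. GLB1, the beta-galactosidase, had the highest value of this group at 1.91 ± 0.23 but missed the threshold on the whole gene (limma adjusted p = 0.0109). The acid alpha-glucosidase GAA, which degrades glycogen, had the lowest at 0.22 ± 0.18.

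**Figure D2:**
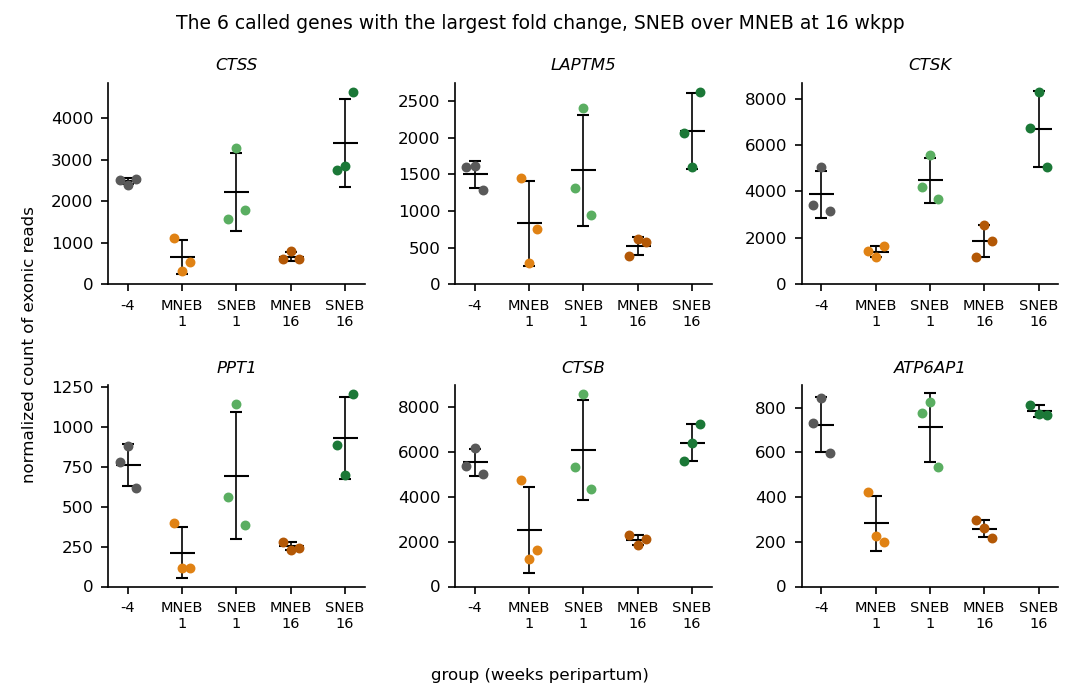
Normalized counts of exonic reads (y axes, from 0) in the 5 groups (x axes) for CTSS, LAPTM5, CTSK, PPT1, CTSB and ATP6AP1; points are libraries, and lines are the mean ± SD of 3 libraries. In each panel the 3 SNEB libraries at 16 wkpp lie above the 3 MNEB libraries at 16 wkpp, and at 1 wkpp the highest MNEB library lies above the lowest SNEB library for LAPTM5, PPT1 and CTSB.

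Among the 6 lipid-degrading enzymes and activator proteins, PSAP, ASAH1 and PPT1 were called at 16 wkpp and the median was 1.60. PPT1, a thioesterase that removes palmitate from proteins, had 282, 231 and 244 normalized counts in MNEB and 889, 701 and 1205 in SNEB. The lowest SNEB library was well above the highest MNEB library, and the log2 fold change was 1.83 ± 0.25 (SE, n = 3 and 3; limma adjusted p = 0.00153 on exons and 0.00654 on the whole gene). PSAP, the precursor of the saposins that present sphingolipids to their hydrolases, differed by 1.54 ± 0.19, and the acid ceramidase ASAH1 by 1.25 ± 0.21. LIPA had a larger value, 2.04 ± 0.45, but its SNEB libraries held 1057, 725 and 2777 normalized counts and it was not called (limma adjusted p = 0.013 on exons). GM2A, the activator of ganglioside hydrolysis, had 1.66 ± 0.35 and the sphingomyelinase SMPD1 0.94 ± 0.29, and neither was called.

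Of the 8 membrane proteins, LAMP2, LAPTM4A and LAPTM5 were called. LAPTM5, a membrane protein of haematopoietic cells, had 388, 619 and 571 normalized counts in MNEB and 2058, 1599 and 2630 in SNEB at 16 wkpp. The groups did not overlap, and the log2 fold change was 2.05 ± 0.25 (SE, n = 3 and 3; limma adjusted p = 0.00123 and 0.00451). LAMP2, a structural protein of the lysosomal membrane with a role in fusion with autophagosomes, differed by 1.43 ± 0.17, and LAPTM4A by 1.13 ± 0.19. LAPTM4A lay just inside the threshold on the whole gene (limma adjusted p = 0.00991). The cystine exporter CTNS (1.37 ± 0.34), the enzyme receptor SCARB2 (1.05 ± 0.23), the calcium channel MCOLN1 (0.84 ± 0.21), LAMP1 (0.74 ± 0.17) and CLN3 (0.68 ± 0.20) were not called, and their libraries did not overlap.

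The V-ATPase subunits and TFEB had the smallest median, 0.52. ATP6AP1, an accessory subunit needed for assembly of the pump, had 297, 260 and 219 normalized counts in MNEB 16 wkpp and 814, 772 and 769 in SNEB 16 wkpp. Spread within both groups was small, and the log2 fold change was 1.57 ± 0.18 (SE, n = 3 and 3; limma adjusted p = 0.000916 and 0.00295). The membrane-sector subunit ATP6V0D1 (0.92 ± 0.16) and the catalytic-sector subunits ATP6V1B2 (0.56 ± 0.17), ATP6V1A (0.48 ± 0.19) and ATP6V1H (0.21 ± 0.19) were not called. TFEB itself was the 1 gene below 0, at -0.14 ± 0.25, with 182, 244 and 219 normalized counts in MNEB and 176, 148 and 251 in SNEB.

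The size of this count rested on the settings more than its direction. Limma with a trend in place of voom weights called 3 of the 41 genes (ATP6AP1, LAMP2 and PSAP) and 0.762% of all genes, and a filter of 1 read called 7 of the 41 and 2.92% of all genes. Without library 1 of MNEB 16 wkpp, 1 gene was called (PSAP; 1.39% of all genes), without its library 2 there were 3 (1.94%), and without its library 3 there was 1 (MAN2B1; 1.09%). Without library 1 of SNEB 16 wkpp there were 3 (1.12%), without its library 2 there were 7 (2.46%), and without its library 3 there were 11 (3.62%). Of these 11, 9 were among the 12 called with all libraries. The calls over all genes thus fell as well, from 5.07%. The median log2 fold change over the 41 genes lay between 1.05 and 1.20 when 1 library was left out.

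At 1 wkpp, SNEB over MNEB had a median log2 fold change of 0.95 over the 41 genes (0.08 over all genes), and 38 of 41 were above 0. No gene was called by limma (0 of 41), with 0% of all 10460 genes called. An unadjusted p-value below 0.05 on exons and on the whole gene was found for 19 of the 41 genes, against 20% of all genes, and limma with a trend called 0 of 41. The libraries of 22 genes did not overlap, all with SNEB higher, where 19.2% of all genes were higher and 20.3% lower without overlap. The 3 largest values were those of CTSS (1.80 ± 0.46, SE), LAPTM4A (1.78 ± 0.28) and CTSC (1.76 ± 0.46). CTSS had 1123, 324 and 526 normalized counts in MNEB and 1577, 3282 and 1789 in SNEB, LAPTM4A had 969, 876 and 485 against 2557, 2842 and 2421, and CTSC had 797, 262 and 456 against 1278, 2832 and 1181. The groups were apart for all 3 genes, with LAPTM4A the most uniform among the SNEB libraries. Without library 1 of MNEB 1 wkpp, the median was 1.40 and 3 of the 41 genes were called (LAMP2, LAPTM4A and PSAP), with 1.91% of all genes called. Leaving out any other library gave 0 calls among the 41 and a median between 0.74 (without library 2 of MNEB 1 wkpp) and 1.14. The 8 genes within 0.19 of 0 at this time came from 5 role groups: CTSZ (0.15 ± 0.52), NEU1 (0.18 ± 0.29), GAA (-0.14 ± 0.29), LIPA (0.19 ± 0.95), CTNS (0.13 ± 0.27), CLN3 (-0.19 ± 0.23), MCOLN1 (-0.03 ± 0.23) and TFEB (0.02 ± 0.26).

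**Figure D3:**
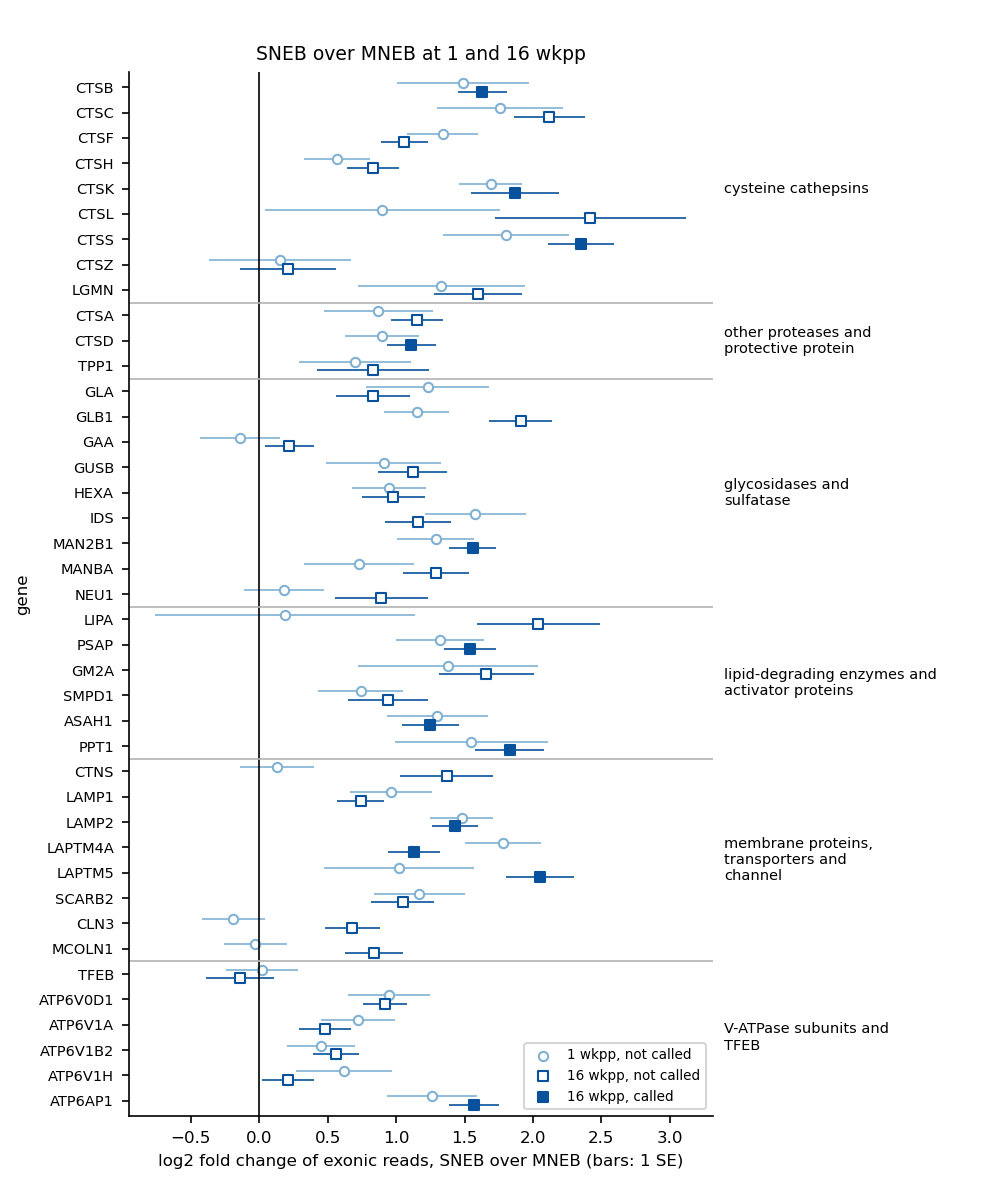
Log2 fold change of exonic reads, SNEB over MNEB (x axis; bars are 1 SE), for each of the 41 genes (y axis, by role) at 1 wkpp (circles) and 16 wkpp (squares; filled where called). Nearly all points lie above 0 at both times, 38 of 41 at 1 wkpp and 40 of 41 at 16 wkpp, and CTSZ, NEU1, GAA, LIPA, CTNS, CLN3, MCOLN1 and TFEB lie nearest 0 at 1 wkpp.

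The libraries at -4 wkpp were set against each diet group at 1 wkpp. Over MNEB 1 wkpp, -4 wkpp had a median log2 fold change of 1.00 over the 41 genes (0.06 over all genes), with 34 of 41 above 0. Limma called 0 of the 41 genes and 3.23% of all 10501. An unadjusted p-value below 0.05 in both analyses was found for 18 of 41, against 26.9% of all genes, and limma with a trend called 0 of 41 and 1.55% of all genes. The libraries did not overlap for 25 genes, all higher at -4 wkpp, where 23.2% of all genes were higher and 23.6% lower without overlap. GM2A had 310, 255 and 222 normalized counts at -4 wkpp and 84.4, 35.1 and 29.4 in MNEB 1 wkpp, a log2 fold change of 2.24 ± 0.43 (SE). IDS, the sulfatase that removes sulfate from heparan and dermatan sulfate, had 681, 687 and 536 against 176, 116 and 107 (2.16 ± 0.29). CTSS had 2498, 2399 and 2535 at -4 wkpp (2.04 ± 0.38). For these 3 genes every library at -4 wkpp was above every MNEB library. The smallest adjusted p-value on the whole gene was 0.0107, for LAMP2 (limma). Without library 1 of MNEB 1 wkpp, 3 of the 41 genes were called (CTSB, CTSS and LAMP2), with 2.65% of all genes called. Without library 1, 2 or 3 of -4 wkpp, 0 of the 41 and 2, 1 and 11 of all genes were called, and without library 2 or 3 of MNEB 1 wkpp 0 of the 41 and 44 and 36 of all genes, against 339 with all 6 libraries. The median over the 41 genes was between 0.76 (without library 2 of MNEB 1 wkpp) and 1.43 (without its library 1).

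The same 3 libraries at -4 wkpp were also compared with SNEB 1 wkpp, so that these comparisons share libraries. There the median log2 fold change was 0.00 over the 41 genes and -0.03 over all genes, with 20 genes above 0 and 21 not. Without library 2 of SNEB 1 wkpp the median was 0.15 with 29 genes above 0, and without its library 3 it was -0.17 with 11 above 0. Limma called 0 of 41 genes and 0% of all 10711, none of the 41 (0) had an unadjusted p-value below 0.05 in both analyses, where 9.96% of all genes did, and limma with a trend called 0 of 41. LAMP2 and LAPTM4A were higher at -4 wkpp without overlap (10.4% of all genes), and the sialidase NEU1 was lower without overlap (9.24% of all genes). The largest values were those of GM2A (0.87 ± 0.36, SE; 124, 262 and 88.2 normalized counts in SNEB 1 wkpp), IDS (0.59 ± 0.26; 441, 582 and 288) and CTSL (-0.53 ± 0.56; 24.3, 24.1 and 11.8, against 20.7, 6.72 and 17.8 at -4 wkpp). GM2A, IDS and CTSL overlapped between the groups.

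From 1 to 16 wkpp, limma on the recovered reads made no call among these genes in either NEB group. In MNEB, limma called 0 of 40 genes and 0% of all 9960, and limma with a trend called 0 of 40. The median log2 fold change, 1 wkpp over 16 wkpp, was -0.02 (-0.01 over all genes). An unadjusted p-value below 0.05 in both analyses was found for 6 of 40 genes (NEU1, CTNS, LAMP2, LAPTM4A, CLN3 and MCOLN1), against 8.49% of all genes. GLB1, NEU1, CTNS, CLN3 and MCOLN1 were higher at 1 wkpp without overlap (9.78% of all genes), and LAMP2, LAPTM4A and ATP6V0D1 were lower without overlap (10.2% of all genes). CTNS had 528, 411 and 448 normalized counts at 1 wkpp and 172, 200 and 190 at 16 wkpp (1.31 ± 0.23, SE). The CTNS levels at 1 wkpp were all above those at 16 wkpp. LIPA had 288, 352 and 333 at 16 wkpp (1.09 ± 0.73), with 1 high library at 1 wkpp. NEU1 had 129, 100 and 103 at 1 wkpp against 46.0, 77.1 and 56.9 (1.04 ± 0.33). Without library 1 of MNEB 1 wkpp the median was -0.40, and without its library 2 it was 0.20.

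In SNEB, limma called 0 of 41 genes and 0% of all 10641 from 1 to 16 wkpp, and limma with a trend called 0 of 41. The median log2 fold change was -0.19 (-0.01 over all genes), with 31 genes below 0, that is, higher at 16 wkpp. Without library 3 of SNEB 1 wkpp the median was -0.04 with 16 genes above 0, and without its library 2 it was -0.42 with 7 above 0. LAMP2 was the 1 gene with an unadjusted p-value below 0.05 in both analyses, against 4.62% of all genes. CTSL, LAMP2 and SCARB2 were lower at 1 wkpp without overlap (4.11% of all genes), and 0 genes were higher (8.02% of all genes). The largest values were those of CTSS (-0.68 ± 0.31, SE), LIPA (-0.66 ± 0.77) and CTSL (-0.63 ± 0.39; 27.5, 29.4 and 32.9 normalized counts at 16 wkpp). CTSS and LIPA overlapped between the time points.

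The difference between these changes, SNEB against MNEB, was tested on the 12 libraries at 1 and 16 wkpp. Limma called 0 of 41 genes and 0% of all 10417, and limma with a trend called 0 of 41. GLB1, CTNS, CLN3 and MCOLN1 had an unadjusted p-value below 0.05 in both analyses (4 of 41, against 3.08% of all genes). The median was -0.22 over the 41 genes and 0.01 over all genes, and it was 0.18 without library 1 of MNEB 1 wkpp. LIPA (-1.87 ± 1.20, SE), CTSL (-1.52 ± 1.20) and CTNS (-1.26 ± 0.45) had the largest values. No gene of the list thus passed the test of a different SNEB to MNEB difference at 1 and 16 wkpp. This does not show that the differences were alike. Tag and contrast cannot be told apart here either. SNEB 1 wkpp and MNEB 16 wkpp are m2, and SNEB 16 wkpp and MNEB 1 wkpp are m1.

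**Figure D4:**
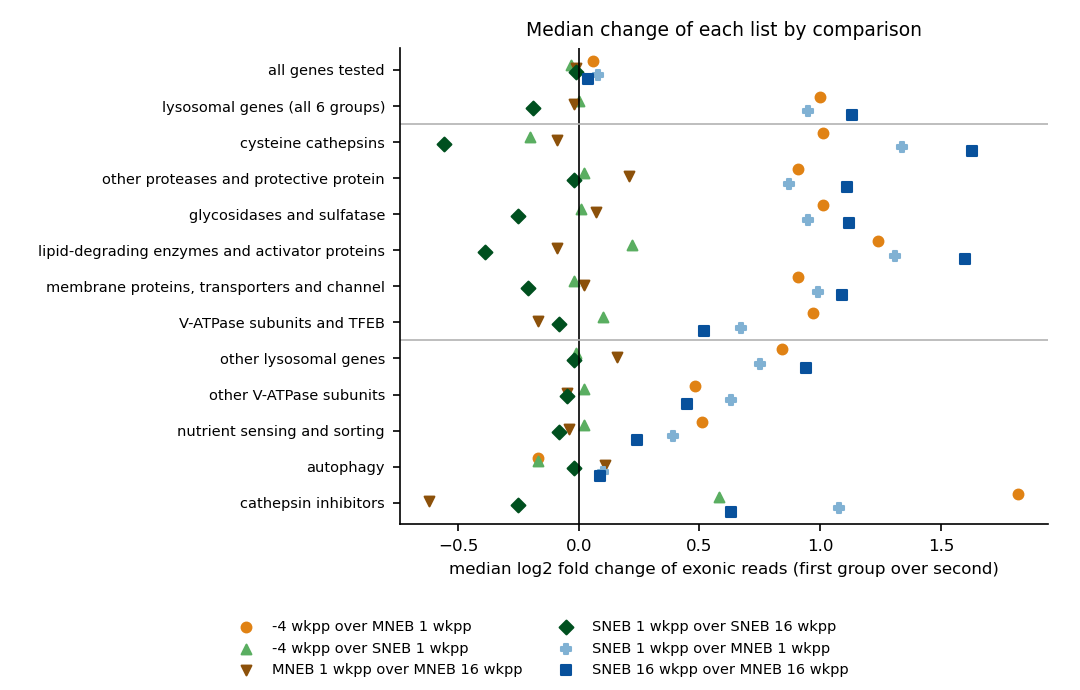
Median log2 fold change of exonic reads, first group over second (x axis), for all genes tested, the 41 lysosomal genes, their 6 role groups and 5 related lists (y axis); symbols are the 6 comparisons. The 3 comparisons of another group with MNEB lie at 0.95 to 1.13 for the 41 genes, the other 3 at -0.19 to 0.00, and the autophagy list lies between -0.17 and 0.11 in all 6.

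Reads on exons and reads on the whole gene did not change alike. Exonic reads made up 68.0 to 84.1% of the reads on the 41 genes, against 39.9 to 60.2% for all genes. For SNEB over MNEB at 16 wkpp, the log2 fold change was larger on exons than on the whole gene for 38 of the 41 genes and for 6214 of 10369 genes in all. The median over the 41 genes was 1.13 on exons and 0.86 on the whole gene. GLB1 had 1.91 on exons and 1.09 on the whole gene, CTSC 2.12 and 1.54, and MANBA, the beta-mannosidase, 1.29 and 0.74. Reads of the 41 genes outside exons were divided by the size factor for whole gene reads and summed. The sum was 9002 to 10456 in MNEB 16 wkpp and 16765 to 18890 in SNEB 16 wkpp, without overlap.

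Other genes of the lysosome were described by lists written out by function. The 31 other lysosomal genes tested had a median log2 fold change of 0.94 for SNEB over MNEB at 16 wkpp. Their highest gene was ACP5, an acid phosphatase of osteoclasts and macrophages, at 3.40, and the lowest was the dipeptidyl peptidase DPP7 at -0.73. Over all genes at 16 wkpp, 5.07% were called, and 22.1% were higher in SNEB and 21.7% lower without overlap. Of 13 other V-ATPase subunits 0 were called by limma, 9 were higher in SNEB without overlap and 1 lower, and the median was 0.45. Of 20 genes of nutrient sensing and sorting at the lysosome, 1 was called, the mannose 6-phosphate receptor M6PR, and the median was 0.24. Of 24 autophagy genes, 1 was called, the kinase ULK1, lower in SNEB at -1.23, and the median was 0.09. Of 3 cathepsin inhibitors, 1 was called, cystatin C (CST3), at 2.23, and the median was 0.63. At 1 wkpp the medians of these 5 lists, in the same order, were 0.75, 0.63, 0.39, 0.10 and 1.08, and limma called 0 of their genes, as it did over all genes.

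Levels of cell type markers were set beside the lysosomal genes. The summed normalized count of 11 macrophage markers was 2866 to 3861 in MNEB 16 wkpp and 22671 to 29319 in SNEB 16 wkpp. It was 2735 to 10220 in MNEB 1 wkpp, 12197 to 27337 in SNEB 1 wkpp and 9548 to 17690 at -4 wkpp. All 11 were higher in SNEB at 16 wkpp without overlap (22.1% of all genes), 4 were called (CD163, CSF1R, FCER1G and MSR1; 1.55% of all genes were called higher), and the log2 fold changes ranged from 1.52 for AIF1 to 3.87 for the complement subunit C1QA, with a median of 2.96. In the other comparisons the median of the macrophage markers, with that of the 41 genes after it, was 0.94 and 1.00 for -4 wkpp over MNEB 1 wkpp, 1.69 and 0.95 for SNEB over MNEB at 1 wkpp, -0.39 and -0.19 for SNEB at 1 over 16 wkpp, 0.82 and -0.02 for MNEB at 1 over 16 wkpp, and -0.44 and 0.00 for -4 wkpp over SNEB 1 wkpp. None of these markers was at 0 in any library. The part of macrophage content in the lysosomal result was not tested.

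Of 7 fibroblast markers listed, 4 were counted, as the reads of 3 collagen genes were not recovered. Their sum was 9988 to 23567 in MNEB 16 wkpp and 68403 to 77294 in SNEB 16 wkpp, with 1 called (decorin, DCN) and DPT at -0.64. It was 6758 to 14732 in MNEB 1 wkpp, 34649 to 53809 in SNEB 1 wkpp and 62000 to 73897 at -4 wkpp. The sum of 8 adipocyte markers was 12073 to 44775 in MNEB 16 wkpp and 45187 to 52423 in SNEB 16 wkpp, with 0 of 8 called by limma and LEP at -2.23. Of the 8, 5 were above 0 and 3 below, with a median of 0.62. Without overlap, 2 were higher in SNEB (22.1% of all genes) and 0 lower (21.7%). At 1 wkpp the adipocyte sum was 21738 to 59727 in MNEB and 74823 to 90427 in SNEB, and at -4 wkpp it was 69605 to 72022. For -4 wkpp over MNEB 1 wkpp, limma called 4 of the 8 adipocyte markers (CIDEA, CIDEC, LEP and LPL), with a median of 1.63 over the 8. It called 3 of the 4 fibroblast markers (DCN, LUM and PDGFRA), with a median of 2.63 over the 4. The called markers were all higher at -4 wkpp, where 3.23% of all genes were called in either direction. Of the 8 adipocyte markers, 5 were higher at -4 wkpp without overlap (23.2% of all genes) and 2 lower (23.6%). The lowest value was that of LIPE at -0.92. All 8 adipocyte markers counted had reads in every library, and ADIPOQ and PLIN4 were not found. Endothelial markers had sums of 24928 to 35878 in MNEB 16 wkpp and 24085 to 27187 in SNEB 16 wkpp, which overlap, with 0 of 7 called. Of the 7, 6 were above 0 and 1 below, with a median of 0.29. Their sum was 30516 to 65048 in MNEB 1 wkpp, 31330 to 38799 in SNEB 1 wkpp and 20500 to 25534 at -4 wkpp. For -4 wkpp over MNEB 1 wkpp, 4 of the 7 were lower without overlap (23.6% of all genes) and 0 higher (23.2%). Skeletal muscle markers had sums of 1173 to 4087 in MNEB 1 wkpp, 1694 to 3791 in MNEB 16 wkpp and 85.8 to 354 in the other 9 libraries. TNNT3, called lower in SNEB at 16 wkpp at -3.27, made up most of this sum, while ACTA1, MYH1, MYH2, CKM, TNNC2 and MYLPF were at 0 in 5 to 9 of the 15 libraries. The part of fibroblasts, adipocytes, endothelium and muscle in the lysosomal result was not tested.

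**Figure D5:**
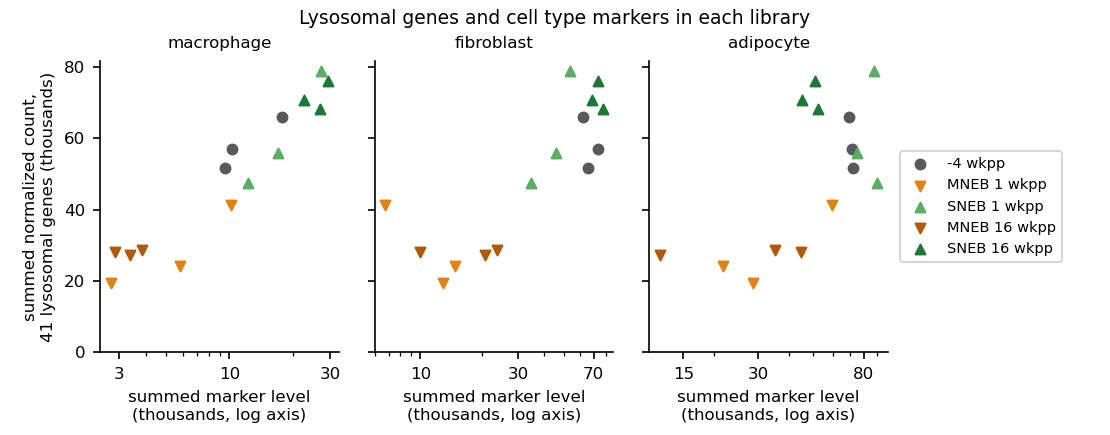
Summed normalized count of the 41 lysosomal genes (y axis, in kilocounts, from 0) against the summed level of macrophage, fibroblast and adipocyte markers (x axes, same unit, log scale), with 1 point per library. The 6 MNEB libraries lie lowest for the lysosomal genes, and the 3 MNEB libraries at 16 wkpp, at 27357 to 28651, also have macrophage sums of 2866 to 3861.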

How the data were processed

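Total RNA was extracted with an RNeasy Midi kit and made into stranded libraries after depletion of ribosomal RNA. Per the labels and methods, the authors used bcl2fastq 2.15.0, Cutadapt 1.3, TopHat2 on bosTau8, htseq-count and DESeq2. They deposited 6 tables, 1 per comparison, with the mean over 6 libraries of the counts divided by DESeq2 size factors, for exons and for whole genes, beside their own log2 fold changes, standard errors, test statistics and p-values, which were not used here. The tables list 13896 genes and 92 spike-ins, and 0 columns belonged to other samples. As each library enters several means, whole reads per library were solved from the 6 means for 13892 genes in each analysis. After the means were altered as a control, 0 genes could be solved. Samples were grouped by their labels, and libraries could be tied to groups but not to single samples. Replicates are separate cows, though cows may recur across time points.

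Reads were tested with limma 3.58.1 (voom weights, R 4.3.3) per comparison of 6 libraries, scaled by the size factors of the tables, for genes with a mean of at least 10 exonic reads, with Benjamini-Hochberg adjustment over all genes tested, two-sided. The test was checked on simulated data. The genes and lists were chosen with earlier results of these data known. Genes named with the value of every library were, per comparison, the 6 called genes with the largest log2 fold change, or the 3 genes with the largest when fewer than 3 were called; other genes are given by role, and genes just inside or outside a threshold, or counted among few, were named after their values were seen. Alternatives were exon or whole gene reads alone, an adjusted p-value below 0.05, scaling by total reads, a filter of 1 read, limma with a trend on log2(normalized count + 1), all 15 libraries in 1 fit, and leaving out each library. An exact permutation test of 3 against 3 libraries cannot give p below 0.1 and was not used. Sequences and coordinates are not given here, since no reference of the build was used. The calls of 1 related list, the other lysosomal genes at 16 wkpp, are not reported here.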

Additional observations from a re-analysis of the deposited data

How the results depend on the processing

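Of the 41 lysosomal genes, the number called between SNEB and MNEB at 16 wkpp (12) was 21 on exons alone (10.2% of all genes), 25 at an adjusted p-value below 0.05 (14.5%), 7 with the filter of 1 read (2.92%) and 3 by limma with a trend (0.762%), against 5.07% of all genes as reported. It was 12 on the whole gene alone (5.82%), 11 with total reads scaling (5.12%) and 9 with all 15 libraries in 1 fit (5.49%), of which 7 were among the 12. All called genes were higher in SNEB in each of these settings. Leaving out each library gave 1 to 11 (1.09 to 3.62%), and 1 to 9 of the 12 were kept. For -4 wkpp and MNEB 1 wkpp (0), the count was 10 on exons alone (16.6% of all genes), 6 at an adjusted p-value below 0.05 (12.4%), 2 with total reads scaling (4.43%) and 5 with all 15 libraries (11.2%), and 0 to 3 when 1 library was left out. For SNEB and MNEB at 1 wkpp (0), it was 3 on exons alone (1.55%), 3 at an adjusted p-value below 0.05 (3.13%), 3 with all 15 libraries (3.76%), and 0 to 3 when 1 library was left out. Exon reads alone and the higher threshold are looser rules by construction, and the cause of the other differences was not tested. The counts of the other comparisons were 0 in every setting run. Among these, -4 wkpp and SNEB 1 wkpp had 0.495% of all genes called on exons alone, 0.56% at an adjusted p-value below 0.05, 0.336% with all 15 libraries, 0.0187% by limma with a trend and 1.01% without library 2 of SNEB 1 wkpp. With total reads scaling and whole gene reads over the 6 comparisons, 11 of 12 medians of the 41 genes moved by less than the spread between libraries, the exception being the whole gene value for SNEB over MNEB at 16 wkpp (0.86). No paired analysis was possible because the labels give no replicate numbers and the libraries are not tied to cows.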
